A study of Danio rerio with 8 samples.

Results

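Cells hold reactive oxygen in check with a small set of enzyme systems, many of them thiol-based. Thioredoxins and glutaredoxins reduce disulfides in other proteins, peroxiredoxins and glutathione peroxidases reduce peroxides, glutathione S-transferases couple glutathione to electrophiles, and superoxide dismutases and catalase act directly on superoxide and hydrogen peroxide. Many of these genes are known targets of NRF2, a transcription factor that KEAP1 holds in check until oxidants or electrophiles release it. Heart muscle is rich in mitochondria, which are a steady source of superoxide. The genes described here are those whose symbol on the array begins as the members of these families do: gst, gpx, prdx, txn, sod, nqo, gclc and gclm, mt2, keap1, nfe2, msra and msrb, glrx and sesn, besides cat and gsr. Probe sets with 1 symbol alone were taken, which gave 61 of the 15502 probe sets tested and 48 of 8793 genes. The rule reads the symbol alone and no expression value, though it was chosen with earlier results of these data known. Of the 48 genes 7 had more than 1 probe set, and no probe set for mt2 was among the 61.

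The samples were ventricles of zebrafish (Danio rerio) 2 weeks after surgery, in 4 pools from animals with a resected ventricle and 4 pools from control animals, each pool made of 50 ventricles. What was done to the control animals, and the strain, age and sex of the fish, are not given in the sources used here. Total RNA of each pool was hybridised to 1 Affymetrix zebrafish array. The zebrafish heart is known to regrow lost muscle, and resected hearts are set against control hearts here to see where transcript levels part. Levels are given as deposited, in log2 units after RMA. Changes are log2 differences, resected less control, given ± the standard error (SE) from a limma fit to all probe sets with n = 4 arrays per group; a probe set is said to have risen or fallen where its limma p, adjusted over all 15502 probe sets, was below 0.05.

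Array medians lay between 5.78 and 5.82 in both groups. Heart muscle markers were at the top of the range, with myl7, a cardiac myosin light chain, at 13.91 to 14.07 in resected and 13.95 to 14.14 in control arrays. Of 9 heart muscle genes 1 rose and 0 fell, and their mean level was 12.58 to 12.74 in resected and 12.49 to 12.58 in control arrays; the riser was the myosin heavy chain myh7 (0.83 ± 0.11, adjusted p = 0.00182, limma). The counts of these marker lists stand beside 8.05% of all genes called (5.05% higher and 3% lower). The lists were chosen with earlier results of these data known, so their counts describe the arrays and are not a test. Of the lists for other cells, the means of the matrix, red cell and skeletal muscle lists lay apart between the groups, and those of the other lists overlapped. Of 10 genes of activated fibroblasts and matrix 9 rose and 0 fell, and their mean level was 9.74 to 9.92 in resected and 7.83 to 7.97 in control arrays. Of 12 red cell genes 7 rose and 0 fell (7.98 to 8.69 in resected and 7.23 to 7.36 in control arrays), and of 14 fast skeletal muscle genes 8 rose and 0 fell (7.79 to 8.32 against 6.96 to 7.24). Of 13 macrophage genes 2 rose and 0 fell (9.09 to 9.80 against 8.38 to 9.50), and of 7 neutrophil genes 2 rose and 0 fell (7.39 to 7.74 against 6.72 to 7.48). Over all 8793 genes, 3622 changes were above 0. All 13 macrophage changes were above 0, with a median of 0.67. Of these 10 had an unadjusted p below 0.05 (limma), where 23.1% of all probe sets did. Of the 7 neutrophil changes 6 were above 0, and 2 had an unadjusted p below 0.05. Control replicate 2 held the highest macrophage mean of the control arrays; the other 3 lay between 8.38 and 8.63. Of 16 liver genes 2 rose and 1 fell (5.35 to 5.41 against 5.30 to 5.43), and of 16 genes of surface epithelium and gill 2 rose and 1 fell (6.01 to 6.47 against 6.12 to 6.69). Of the control transcripts, GAPDH had a difference between its 3' and 5' probe sets of 0.89 in resected and 0.91 in control arrays (exact two-sided permutation test, p = 0.771), while that of the muscle actin was -1.62 in resected and -2.16 in control arrays (exact p = 0.0286, the smallest that 4 against 4 arrays can give).

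Most antioxidant transcripts did not pass the test 2 weeks after resection. Of the 61 probe sets 5 rose and 1 fell, or 9.84%, where 6.85% of all probe sets passed (4.28% higher and 2.57% lower). The probe sets that rose were those of txnb, a thioredoxin, txndc5 and prdx4, which work in the endoplasmic reticulum, and nfe2l2a and nfe2l3, transcription factors of the NRF family. The one that fell belonged to gpx4a, a glutathione peroxidase of the kind that reduces lipid peroxides in membranes. With each gene represented by its brightest probe set, 4 of 48 genes rose and 1 fell, or 10.4%, beside 8.05% of all genes (5.05% higher and 3% lower); the probe set of txndc5 that rose is not its brightest. The count of probe sets that rose went from 5 to 3 without resected replicate 1 or 3. It went to 1 without resected replicate 2 or control replicate 4. Over all probe sets the calls went from 1062 to 545 without resected replicate 2 and to 1608 without control replicate 2. The count of member genes that rose went from 4 to 2 without resected replicate 1, and to 6 without control replicate 2. It was 1 without resected replicate 2 or 3 or control replicate 4. The members behind these counts changed as well. Without resected replicate 3, txnb, prdx4 and nfe2l3 lost their calls, and a probe set not called with all arrays entered. Without control replicate 3 the count of probe sets stayed at 5, though txnb and nfe2l3 lost their calls. The 1 that fell became 0 without resected replicate 2, 3 or 4 or control replicate 3 or 4. The median change was 0.12 over the 61 probe sets and -0.05 over all probe sets. Of the 61 changes 37 were above 0, where 6134 of all 15502 were. Without moderation of the variance none of the 6 passed (adjusted p = 0.0565 to 0.147, limma fit without eBayes moderation). In ventricle tissue, more or fewer cells of a type and more or less RNA per cell cannot be told apart.

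**Figure D1:**
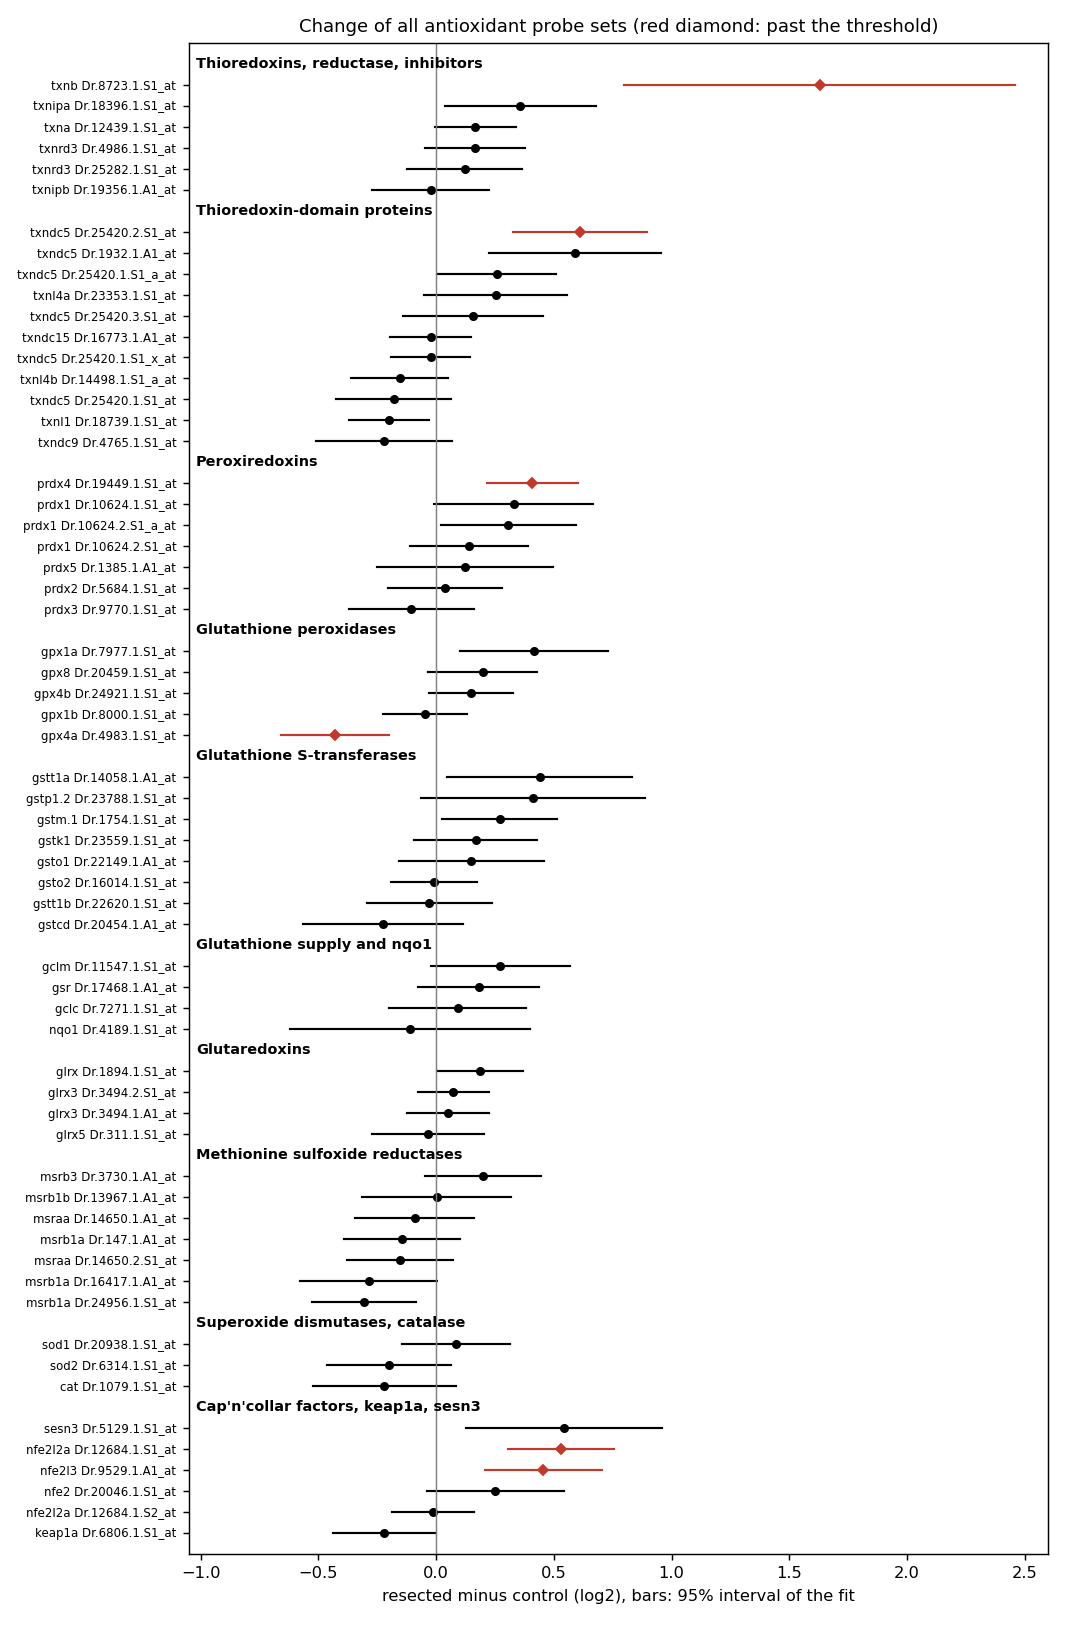
Change of each of the 61 probe sets in resected against control ventricles (x axis, log2; bars are 95% intervals of the limma fit), grouped by family and ordered by change within it; red diamonds mark the 6 probe sets past the threshold. Those of txnb, txndc5, prdx4, nfe2l2a and nfe2l3 lie to the right of 0 and that of gpx4a to the left, and most other intervals cross 0.

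The 4 resected values lay wholly apart from the 4 control values in 11 of the 61 probe sets, or 18%, beside 14.3% of all probe sets. In 8 of them the resected values were above, and in 3 below; over all probe sets the shares were 6.95% above and 7.35% below. Besides the 6 that passed the test, the 11 were probe sets of glrx, glrx3, txnipa, txnl1 and msrb1a. An unadjusted p under 0.05 was reached by 18 of the 61, 14 of them higher and 4 lower, and by 23.1% of all probe sets (11.3% higher and 11.8% lower). For the 55 probe sets that did not pass, the 95% interval of the change stayed within 0.5 log2 units of 0 in 36 and reached further in 19, of which 13 reached upward and 6 downward. None of the 55 intervals reached 1 log2 unit, or a doubling, in either direction. The intervals hold the spread between arrays alone, and low signal limits their reading for dim probe sets, among them gpx8, txnipb and gstcd.

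Thioredoxins are small proteins that pass electrons from NADPH, by way of thioredoxin reductase, to oxidised proteins. The thioredoxin gene txnb (Entrez Gene 436734) had the largest change of the 61 probe sets. Its values were 8.99, 9.59, 9.17 and 9.17 in resected replicates 1 to 4, against 6.84, 8.96, 7.37 and 7.23 in control replicates 1 to 4. The resected values were close together, and control replicate 2 stood 0.03 below the lowest of them while the other controls stood well under it. The means were 9.23 ± 0.25 in resected and 7.60 ± 0.93 in control arrays (SD, n = 4), and txnb rose by 1.63 ± 0.37 (SE), or 3.09-fold (adjusted p = 0.0286, limma). Without control replicate 2 the change was 2.08 (adjusted p = 9.66e-05, limma). The call ended when any other single array was left out, with adjusted p = 0.0512, 0.0933, 0.0689 and 0.0549 without resected replicates 1 to 4 and 0.0610, 0.0659 and 0.0883 without control replicates 1, 3 and 4 (limma), and with a robust variance prior (0.0668).

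Control replicate 2 was also the control array with the highest mean of the macrophage markers, at 9.50, inside the resected range. In the mean of those 13 macrophage genes the other controls were at 8.38, 8.53 and 8.63, the same 3 arrays in which txnb was low. Gene by gene, control replicate 2 stood clear above the other controls in all of that list but csf1ra and lgmn. In control replicates 1 to 4, csf1ra was at 5.21, 5.27, 5.36 and 5.39, and lgmn at 8.55, 8.55, 8.48 and 8.47. In the mean of the 7 neutrophil genes control replicate 2 was likewise the highest control, at 7.48, inside the resected range of 7.39 to 7.74. Within that list it was the highest control for mmp13a, lyz, mmp9 and alox5ap, but not for mpx or srgn, and the lowest for cpa5. Resected replicate 2 was the highest resected array for txnb, at 9.59, and for the macrophage and neutrophil means, at 9.80 and 7.74. It was also the highest resected array in the matrix and skeletal muscle means, at 9.92 and 8.32. In the red cell and matrix lists control replicate 2 was not apart from the other controls, at 7.34 and 7.83. What part macrophage or neutrophil transcripts have in the txnb values was not tested.

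**Figure D2:**
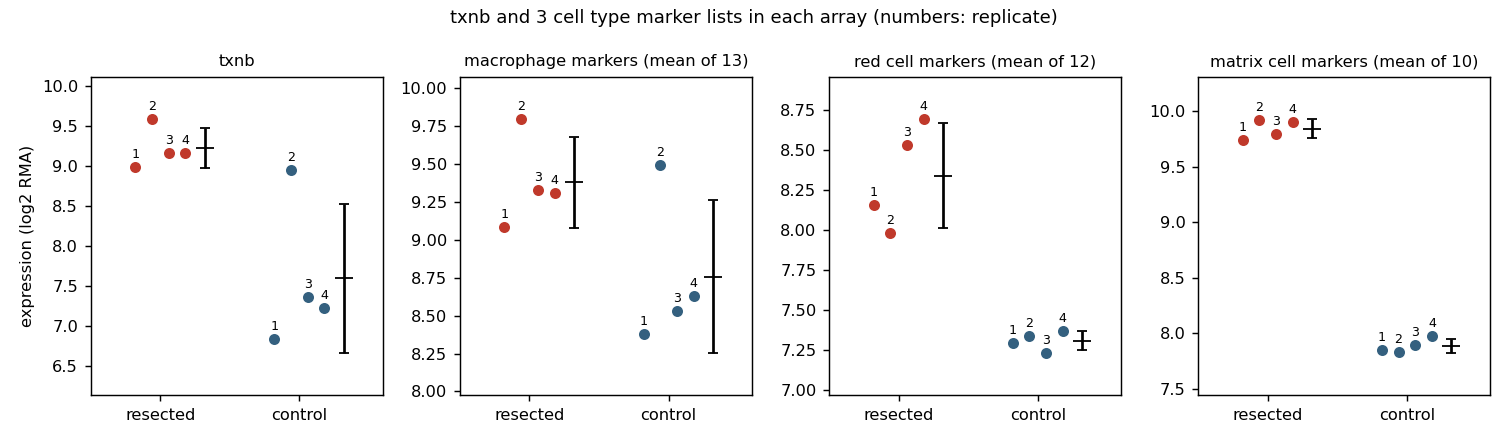
Expression of txnb and the mean of 3 marker lists in each array (y axes, log2 RMA; points are arrays numbered by replicate, resected on the left and control on the right; black marks are mean and SD, n = 4). Control replicate 2 lies at 8.96 for txnb and 9.50 for the macrophage mean, near the resected arrays in both, and with the other controls in the red cell and matrix lists.

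The second thioredoxin gene, txna, did not pass. It was at 11.98, 12.05, 12.08 and 12.02 in resected arrays, against 11.84, 12.00, 11.78 and 11.85 in control arrays, a difference of 0.17 ± 0.08 (95% interval -0.01 to 0.34; adjusted p = 0.232, limma). The thioredoxin reductase gene txnrd3 was at 0.17 ± 0.10 and 0.12 ± 0.11 with its 2 probe sets (adjusted p = 0.328 and 0.544). Thioredoxin-interacting protein binds thioredoxin and blocks it in mammals, and zebrafish has a pair of genes for it. For txnipa the values were 9.87, 10.05, 9.84 and 10.53 in resected and 9.76, 9.64, 9.63 and 9.84 in control arrays; the groups touched without overlapping, and the change of 0.36 ± 0.14 did not pass (adjusted p = 0.172, limma). Its paralog txnipb was at -0.02 ± 0.11, on a probe set of low signal (4.24 ± 0.14 in resected and 4.26 ± 0.19 in control arrays, SD, n = 4).

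The pair txna and txnb was 1 of 7 pairs of members whose symbols differ only by a final a or b, and in which the changes of both genes could be compared within each array. The change of txna minus that of txnb was -1.46 (exact two-sided permutation test over 70 splits of the arrays, p = 0.0286, adjusted over the 7 pairs p = 0.0667). The value for gpx4a minus gpx4b was -0.58 and for gpx1a minus gpx1b it was 0.46, each with the same p and adjusted p. Those 3 pairs reached the smallest p that 8 arrays allow, and none passed after adjustment. With that floor, a pair could pass the adjustment only if most of the 7 pairs reached it, so this outcome says little about any single pair. The other 4 pairs had p = 0.171 (gstt1a minus gstt1b, 0.47), 0.171 (txnipa minus txnipb, 0.38), 0.0857 (txnl4a minus txnl4b, 0.41) and 0.486 (msrb1a minus msrb1b, -0.15) in the exact test, and adjusted p = 0.15 to 0.486. Probes of one paralog can also bind the other, so how far the 2 transcripts of a pair were told apart is uncertain.

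**Figure D3:**
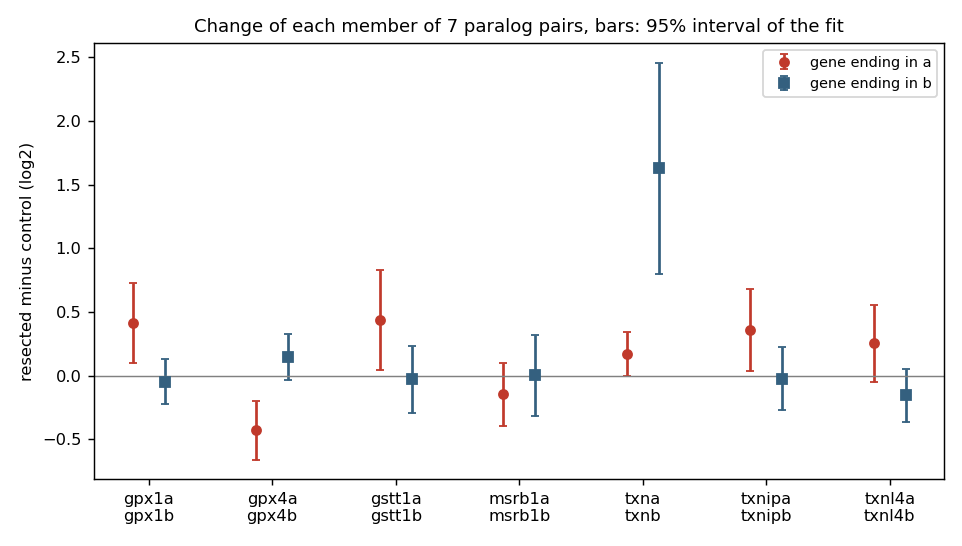
Change of each gene of the 7 pairs (y axis, resected minus control, log2; bars are 95% intervals of the limma fit; circles are the genes ending in a, squares those ending in b). The widest gaps are between txnb at 1.63 and txna at 0.17, and between gpx4a at -0.43 and gpx4b at 0.15.

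Among proteins with a thioredoxin fold but other tasks, txndc5 (Entrez Gene 406289) changed. It encodes a protein disulfide isomerase of the endoplasmic reticulum, which in mice has been tied to cardiac fibroblasts. The probe set that rose was at 6.86, 7.18, 6.71 and 7.22 in resected arrays, against 6.25, 6.39, 6.58 and 6.31 in control arrays. The groups lay apart, by 0.13 between resected replicate 3 and control replicate 3. The rise was 0.61 ± 0.13, or 1.53-fold (adjusted p = 0.0199, limma), and the call ended without resected replicate 2 or control replicate 4 (adjusted p = 0.0665 and 0.0618). The other 5 probe sets of the gene did not pass. Of these 1 was close, at 0.59 ± 0.16 (adjusted p = 0.0606), the brightest was at 0.26 ± 0.11 (adjusted p = 0.21), and the dim ones lay between -0.18 and 0.16. The mean of the 6 was 0.23 ± 0.09 (adjusted p = 0.14, limma).

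In the same family, 0 of the other 5 genes passed. The proteasome-associated txnl1 stood apart by a small amount, at 8.39, 8.38, 8.44 and 8.44 in resected and 8.51, 8.66, 8.72 and 8.58 in control arrays (-0.20 ± 0.08, adjusted p = 0.15, limma). The chaperonin cofactor gene txndc9 was at -0.22 ± 0.13, the spliceosome genes txnl4a and txnl4b at 0.25 ± 0.14 and -0.16 ± 0.09, and txndc15 at -0.02 ± 0.08. Without control replicate 2, txnl4a passed at 0.39 (adjusted p = 0.0383, limma).

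Peroxiredoxins reduce hydrogen peroxide with a reactive cysteine and are told apart by where in the cell they work. The member of the endoplasmic reticulum, prdx4 (Entrez Gene 570477), was at 8.93, 9.01, 9.12 and 9.06 in resected arrays, against 8.52, 8.55, 8.78 and 8.64 in control arrays. All resected values were above all control values, and the groups' SDs were 0.08 and 0.12. It rose by 0.41 ± 0.09, or 1.33-fold (adjusted p = 0.0207, limma). The call ended without resected replicate 2 or 3 or control replicate 4 (adjusted p = 0.0578, 0.0686 and 0.0501).

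The peroxiredoxins of the cytosol and mitochondria did not pass. The cytosolic prdx1 had 3 probe sets, at 0.33 ± 0.15, 0.31 ± 0.13 and 0.14 ± 0.11 (adjusted p = 0.227, 0.188 and 0.489, limma). In each of them control replicate 2 was the highest control array, and without it the brightest passed at 0.41 (adjusted p = 0.0485). Red cells are known to be rich in prdx2, which was at 11.96, 11.75, 12.15 and 11.85 in resected and 11.90, 12.03, 11.95 and 11.69 in control arrays, a change of 0.04 ± 0.11 that lay within the spread of either group. The mitochondrial prdx3 was at -0.11 ± 0.12, and prdx5 at 0.12 ± 0.17. For prdx5, 3 controls lay between 10.08 and 10.20 and the resected arrays between 10.43 and 10.52, while control replicate 3 was at 10.95.

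Glutathione peroxidases went in both directions. The lipid peroxidase gene gpx4a (Entrez Gene 352928), whose mammalian counterpart guards against ferroptosis, was at 9.02, 8.75, 8.75 and 8.79 in resected arrays, against 9.13, 9.11, 9.38 and 9.41 in control arrays. Resected replicate 1 came within 0.08 of the lowest control, and the other 3 resected arrays lay further below. It fell by 0.43 ± 0.10 on the log2 scale (adjusted p = 0.0338, limma), a level 1.35-fold below that of control ventricles. The call ended without resected replicate 2, 3 or 4 or control replicate 3 or 4 (adjusted p = 0.104, 0.0995, 0.0720, 0.0811 and 0.0924). The second gene of that kind, gpx4b, was at 10.30, 10.26, 10.33 and 10.46 in resected and 10.11, 10.21, 10.29 and 10.14 in control arrays, or 0.15 ± 0.08 (adjusted p = 0.304).

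The cytosolic peroxidase gpx1a was at 10.88, 11.08, 11.35 and 11.54 in resected and 10.59, 10.85, 10.92 and 10.84 in control arrays. Resected replicate 1 fell among the controls, and the difference of 0.41 ± 0.14 did not pass (95% interval 0.10 to 0.73; adjusted p = 0.112, limma). Its 2 highest arrays, resected replicates 3 and 4, were also the highest in the mean of the red cell markers, at 8.53 and 8.69, against 8.16 and 7.98 in resected replicates 1 and 2; the part of red cell transcripts was not tested. The paralog gpx1b was at -0.05 ± 0.08, and gpx8, an enzyme of the endoplasmic reticulum, at 0.20 ± 0.10 on a probe set of low signal.

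Probe sets of the transcription factors nfe2l2a and nfe2l3 were among the members that rose, while that of the related nfe2 did not pass. nfe2l2a (Entrez Gene 360149) is 1 of the zebrafish genes for NRF2. Its brighter probe set was at 7.83, 8.03, 7.97 and 7.71 in resected arrays, against 7.44, 7.43, 7.41 and 7.15 in control arrays, with the lowest resected value 0.27 above the highest control. It rose by 0.53 ± 0.10, or 1.44-fold (adjusted p = 0.0125, limma), and among the 6 only this probe set passed with every single array left out (adjusted p = 0.0128 to 0.0458). The second probe set did not show the change: it was at 4.56 to 4.76 in resected and 4.61 to 4.76 in control arrays (-0.01 ± 0.08, adjusted p = 0.939), below the array medians. The mean of both was 0.26 ± 0.08 (adjusted p = 0.0745, limma).

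The related factor nfe2l3 (NRF3; Entrez Gene 406512) was at 5.07, 5.31, 5.17 and 5.14 in resected arrays, against 4.83, 4.96, 4.54 and 4.54 in control arrays. The groups lay apart by 0.11, at a signal below the array medians. It rose by 0.45 ± 0.11, or 1.37-fold (adjusted p = 0.0372, limma), and the call held without control replicate 1 or 2 but ended without each of the other 6 arrays (adjusted p = 0.0605 to 0.114). The third factor of the group, nfe2, which acts in red cell and platelet precursors, did not pass at 0.25 ± 0.13 (adjusted p = 0.28). Its 2 highest arrays were resected replicates 3 and 4, at 6.44 and 6.63, as they were for the mean of the red cell markers. Among controls nfe2 was highest in replicate 3, at 6.19, where the red cell mean was lowest, at 7.23. The part of red cell transcripts was not tested.

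The NRF2 inhibitor keap1a was at 7.23, 7.31, 7.38 and 7.24 in resected and 7.69, 7.29, 7.46 and 7.60 in control arrays (-0.22 ± 0.10, adjusted p = 0.21, limma), with control replicate 2 among the resected values. The sestrin gene sesn3, a stress-induced brake on the growth kinase TOR, was at 8.65, 8.56, 8.76 and 8.90 in resected arrays, against 7.59, 8.21, 8.64 and 8.26 in control arrays. Its change of 0.54 ± 0.19 did not pass (adjusted p = 0.113), and passed at 0.70 without control replicate 3, the control array that lay among the resected ones (adjusted p = 0.0421).

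**Figure D4:**
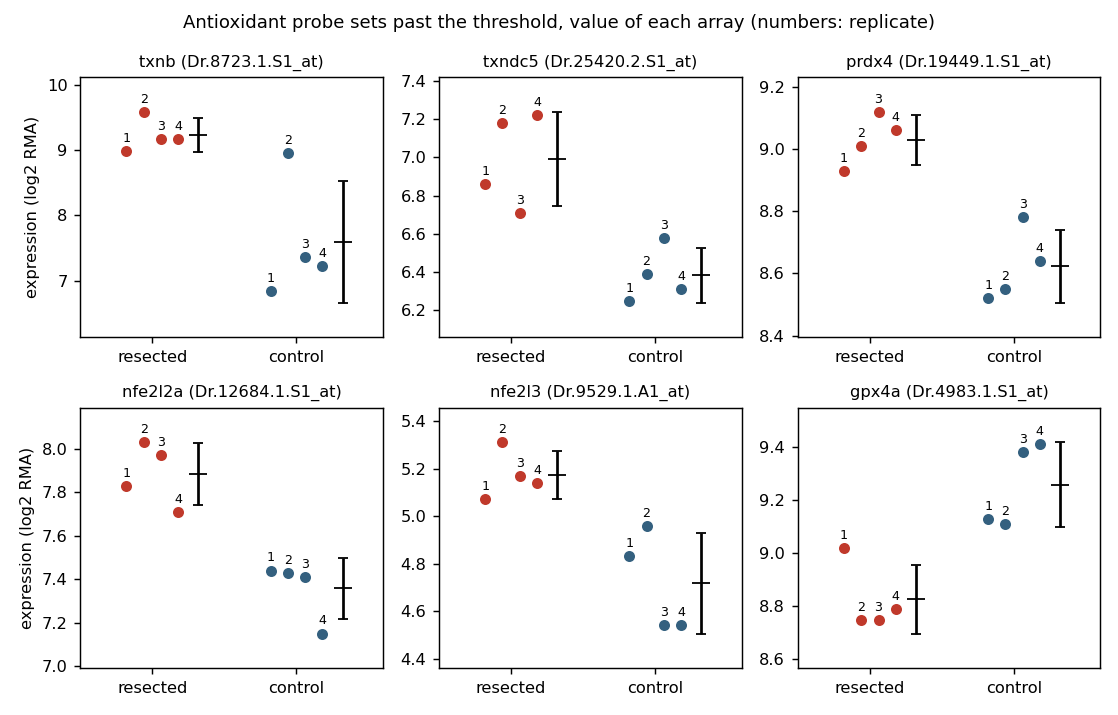
Values of the 6 probe sets past the threshold in each array (y axes, log2 RMA; points are arrays numbered by replicate, resected on the left and control on the right; black marks are mean and SD, n = 4). The groups do not overlap in any of the 6, and control replicate 2 of txnb, at 8.96, comes closest to the other group.

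The genes gclc, gclm and gsr, whose enzymes make and recycle glutathione, did not pass, and neither did nqo1. limma called 0 of these 4 genes, and 0 had an unadjusted p below 0.05. For gclm, the regulatory subunit of the enzyme for the first step of glutathione synthesis, resected replicates 1 to 3 were at 7.74 to 7.82 and resected replicate 4 at 7.24, against 7.28 to 7.48 in control arrays. The change was 0.27 ± 0.13 (adjusted p = 0.25), and without resected replicate 4 it was 0.41 and passed (adjusted p = 0.0324, limma). The catalytic subunit gclc was at 0.09 ± 0.13 and glutathione reductase gsr at 0.18 ± 0.12. nqo1, a quinone reductase widely used as a readout of NRF2, was at 5.75, 6.13, 6.18 and 5.60 in resected and 5.92, 5.35, 6.44 and 6.38 in control arrays. The control arrays spanned more than the resected ones, and the interval of the change reached from -0.62 to 0.40.

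Of the 8 glutathione S-transferase genes limma called 0 changed, while 2 were higher and 0 lower with an unadjusted p below 0.05. The shares over all probe sets, here and for such counts below, were 11.3% higher and 11.8% lower. The transferase genes that were higher were gstt1a (0.44 ± 0.18, adjusted p = 0.172) and gstm.1 (0.27 ± 0.11, adjusted p = 0.176). The pi-class gene gstp1.2 was at 10.57, 10.88, 10.95 and 10.88 in resected and 10.42, 9.74, 10.96 and 10.53 in control arrays. Control replicate 2 was the lowest there and control replicate 3 as high as the resected arrays, so that the change of 0.41 ± 0.21 had an interval from -0.06 to 0.89. The others lay between -0.22 for gstcd and 0.17 for gstk1. The gene gstr is not among the members, since both of its probe sets carry the symbol of the transferrin gene tfa as well.

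Glutaredoxins, which use glutathione to reduce proteins or to carry iron-sulfur clusters, varied little. limma called 0 of their 4 probe sets, and 1 was higher and 0 lower with an unadjusted p below 0.05. That one, glrx, was at 10.21, 10.24, 10.20 and 10.38 in resected and 9.94, 10.09, 10.09 and 10.17 in control arrays (0.19 ± 0.08, adjusted p = 0.211). A probe set of glrx3 was at 8.86 to 8.88 in resected and 8.79 to 8.81 in control arrays. The groups did not overlap there, yet the difference was only 0.07, and the fit, which shares its estimate of the spread with other probe sets, gave it an SE of 0.07 (adjusted p = 0.548, limma). The mitochondrial glrx5 was at -0.04 ± 0.11.

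Methionine sulfoxide reductases repair oxidised methionine in proteins, and limma called 0 of their 7 probe sets (0 higher and 1 lower where the unadjusted p was below 0.05). All 3 probe sets of msrb1a, a selenoprotein in mammals, were lower in resected arrays, at -0.31 ± 0.10, -0.29 ± 0.13 and -0.14 ± 0.11. None passed (adjusted p = 0.0947, 0.222 and 0.469, limma). The second had low signal, with means of 3.54 in resected and 3.82 in control arrays. The first of the 3 was at 6.24, 5.90, 5.91 and 6.06 in resected and 6.48, 6.24, 6.37 and 6.25 in control arrays. Its groups touched at 6.24 without overlapping. The paralog msrb1b was at 0.00 ± 0.14, msraa at -0.09 ± 0.11 and -0.15 ± 0.10, and msrb3 at 0.20 ± 0.11.

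Superoxide dismutases and catalase did not pass either: limma called 0 of the 3, and 0 had an unadjusted p below 0.05. The cytosolic sod1 was at 10.53, 10.53, 10.65 and 10.60 in resected and 10.50, 10.35, 10.77 and 10.34 in control arrays (0.09 ± 0.10, 95% interval -0.14 to 0.32). The mitochondrial sod2 was at 11.64, 11.48, 11.61 and 11.69 in resected and 11.68, 11.54, 12.09 and 11.90 in control arrays (-0.20 ± 0.12, interval -0.46 to 0.06). Catalase, the peroxisomal enzyme, was at -0.22 ± 0.14 (interval -0.52 to 0.08). In all 3 genes the highest array was control replicate 3. The resected arrays lay within the control range in sod1, while 1 resected array lay below it in sod2 and 2 in catalase.

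**Figure D5:**
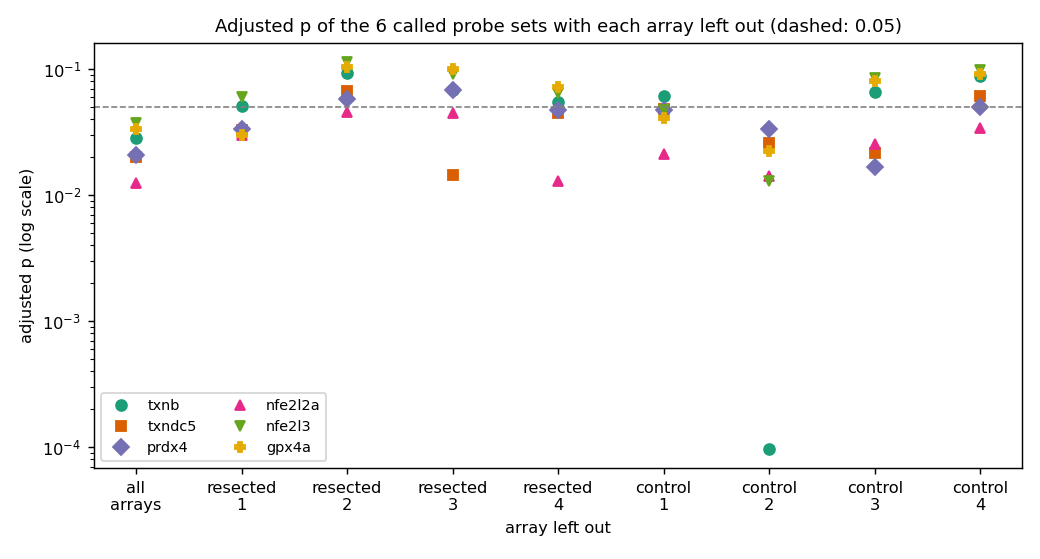
Adjusted p (y axis, log scale) of the 6 probe sets with all arrays and with each array left out (x axis); the dashed line is the threshold of 0.05. nfe2l2a stays below the line throughout, and txnb drops to 9.66e-05 without control replicate 2 and lies above the line without any other array.

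In the wider pathway most listed genes did not pass, and their counts stand beside 8.05% of all genes called (5.05% higher and 3% lower). These lists too were chosen with earlier results of these data known, so their counts are not a test. Of 21 measured genes known as NRF2 targets outside the families above, 3 rose and 0 fell, with a median change of 0.06. The biliverdin reductase blvrb, abundant in red cells, rose by 0.91 ± 0.15 (adjusted p = 0.00618, limma). Its values were 7.7, 7.6, 8.3 and 8.3 in resected arrays and 7.1, 7.0, 7.1 and 7.0 in control arrays. They were highest in resected replicates 3 and 4, as the mean of the red cell markers was. The part of red cell transcripts was not tested. The transporter abcc4 rose by 0.49 ± 0.10 (adjusted p = 0.0137), and the pentose phosphate enzyme pgd, which makes NADPH, by 0.41 ± 0.10 (adjusted p = 0.0350). The call for pgd ended without any single array but control replicate 2 (0.0518 to 0.109) and when the variance prior was let vary with intensity (0.0506). Without control replicate 2, 5 genes of the list rose and 0 fell. Over all probe sets, calls without that array, here and for such counts below, went from 1062 to 1608 (664 to 951 higher and 398 to 657 lower). The added genes of the list, named after their values were seen, were the pentose phosphate enzyme taldo1 (0.55) and the UDP-glucose dehydrogenase ugdh (0.49).

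Of 9 partners and regulators of NRF2 and KEAP1, 0 rose and 1 fell by limma, while the unadjusted p was below 0.05 for 1 higher and 1 lower gene (without control replicate 2, dpp3, a peptidase that binds KEAP1, rose by 0.86). The one that fell was sqstm1 (p62), an autophagy receptor that binds KEAP1, at 8.10, 8.02, 8.09 and 8.32 in resected and 8.65, 8.55, 8.65 and 8.58 in control arrays (-0.48 ± 0.09, adjusted p = 0.0092, limma). This gene was counted with the regulators only, so the count of 0 that fell among the NRF2 targets leaves it out. Of 14 genes of glutathione and sulfur amino acid metabolism, 1 rose and 1 fell. The cysteine dioxygenase cdo1, which diverts cysteine from glutathione to taurine, was at 10.84, 10.50, 10.81 and 10.95 in resected and 11.70, 11.69, 11.51 and 11.46 in control arrays, so that it fell by 0.82 ± 0.11 (adjusted p = 0.00191). Cystathionine gamma-lyase cth, which makes cysteine, was at 6.64, 6.51, 6.65 and 6.58 in resected and 6.25, 6.10, 6.33 and 5.86 in control arrays. It rose by 0.46 ± 0.11 (adjusted p = 0.0281), a call that ended without any 1 resected array or control replicate 4 (0.0533 to 0.0825). Without control replicate 2, 2 genes of that list fell, the second being chac1, an enzyme that degrades glutathione (-0.96), named after its value was seen.

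Of 19 other selenoprotein and selenium genes, 1 rose and 1 fell (2 fell without control replicate 2, with selenou1a at -0.42). The rise was in selenon, a selenoprotein of the endoplasmic reticulum linked to muscle disease, at 1.14 ± 0.16 (adjusted p = 0.00242, limma), and the fall in the thyroid hormone deiodinase dio1, at -0.98 ± 0.16 (adjusted p = 0.00621). Of 8 sources of reactive oxygen, 3 rose and 0 fell. The oxidase of the endoplasmic reticulum ero1a, which makes hydrogen peroxide as it forms disulfides, rose by 1.79 ± 0.33 (adjusted p = 0.0101), with 8.16, 7.66, 8.05 and 8.59 in resected and 6.32, 7.39, 5.76 and 5.83 in control arrays. The phagocyte oxidase subunit ncf1 rose by 1.61 ± 0.25 (adjusted p = 0.00464), with 6.1, 7.0, 6.3 and 6.5 in resected and 5.0, 5.6, 4.5 and 4.5 in control arrays. In both genes control replicate 2 was the highest control, as it was for txnb and the means of the macrophage and neutrophil markers. It was the highest control for selenon and rac1a too, at 5.21 and 8.82. Resected replicate 2, the highest resected array for txnb and those means, was the highest for ncf1 but the lowest for ero1a. The GTPase rac1a rose by 0.51 ± 0.13 (adjusted p = 0.0430); its call ended without any single array but control replicate 2 (0.0611 to 0.109) and with further quantile normalization (0.0638). Of 6 genes of copper, zinc and iron handling limma called 0, and 3 were higher and 0 lower with an unadjusted p below 0.05; slc30a1a (0.20 ± 0.07, adjusted p = 0.128) and steap4 (0.21 ± 0.08, adjusted p = 0.148) came first by p. Of the 11 genes of these lists named as changed with all arrays, sqstm1 and cdo1 alone passed without moderation of the variance (adjusted p = 0.0371 and 0.0319).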

How the data were processed

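Expression was measured on 8 Affymetrix zebrafish arrays. The authors deposited log2 values; affy and RMA, which corrects background, quantile-normalizes and summarises probes, are named per the submitters' processing notes, without versions, and nothing further is given in the sources used here. RMA values carry no detection call, and precision is limited by having 4 arrays a group. The 115 control probe sets were left out, which left 15502. Symbols came from the platform annotation; the Entrez identifiers of all 61 members matched the gene table of the GRCz12tu assembly, and 0 symbols were replaced. No coordinates or sequences are given.

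The 2 groups were fitted by lmFit and eBayes of limma 3.58.1 (R 4.3.3), two-sided, with Benjamini-Hochberg adjustment over all probe sets at a threshold of 0.05. For counts of genes, the brightest probe set on average stood for its gene. Paralog pairs and the control transcripts were compared by exact permutation. The test was checked on simulated data. Every member may be named; of each pathway list, up to 4 genes past the threshold or the 2 with the smallest p. Members and lists were chosen with earlier results of these data known. No 2 arrays held identical values. The labels call the pools biological replicates. Over all probe sets, arrays with the same replicate number did not deviate together (correlations of 0.12, 0.14, -0.01 and -0.16), so the numbers were not taken as pairs. Different numbers gave -0.22 to 0.30. For txnb and the macrophage and neutrophil means, however, replicate 2 was the highest array of each group. The alternatives were a replicate block, other variance priors, array weights, further normalization or centring, filters on dim probe sets, unmoderated variances, averaging the probe sets of each gene, and leaving out each array.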

Additional observations from a re-analysis of the deposited data

Results flagged for a closer look

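In 9 of the 122 sets of 4 arrays formed by the 61 probe sets and both groups, 1 array lay far from the other 3, by Dixon's 95% criterion for the gap as a share of the range; chance gives about 5%. In resected arrays these were replicate 4 for gclm (7.24, others 7.74 to 7.82) and gstk1 (10.85, others 10.54 to 10.58), replicate 2 for txnipb (4.03, others 4.29 to 4.33) and prdx3 (10.69, others 10.96 to 10.98), and replicate 1 for gpx4a (9.02, others 8.75 to 8.79). In control arrays they were replicate 2 for prdx1 (4.93, others 4.40 to 4.48), replicate 4 for nfe2l2a (7.15, others 7.41 to 7.44), and replicate 3 for prdx5 (10.95, others 10.08 to 10.20) and txndc5 (7.34, others 6.97 to 6.99).

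A signal also lay outside the probe sets used. One probe set annotated to both gstr and tfa was at 10.02 to 10.60 in resected and 8.04 to 8.48 in control arrays (2.15 ± 0.14, adjusted p = 1.85e-05, limma). The other with the same annotation was at 10.56 to 10.97 in resected and 10.62 to 10.93 in control arrays (-0.03 ± 0.11, adjusted p = 0.906). A probe set with the symbol of the transferrin gene tfa alone, from the liver list, had means of 9.49 in resected and 7.35 in control arrays. Its change was 2.15 ± 0.16 (adjusted p = 3.73e-05, limma), close to that of the first probe set with both symbols. Which gene each probe set with both symbols measures was not tested.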

How the results depend on the processing

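With single arrays left out, all probe sets that changed went between 545 and 1608 (394 to 951 higher, 151 to 657 lower), member probe sets that rose between 1 and 7 and fell between 0 and 1, and member genes that rose between 1 and 6 and fell between 0 and 1. Over all probe sets the low ends came without resected replicate 2 and the high ends without control replicate 2. In the lists, NRF2 targets that rose went between 2 and 5, NRF2 regulators that rose between 0 and 1, glutathione metabolism genes that rose between 0 and 1 and fell between 1 and 2, and selenoprotein genes that fell between 1 and 2. Without moderation of the variance 299 probe sets changed (224 higher, 75 lower); none of the 6 member calls held, the 1 member probe set and 1 member gene that rose was instead glrx3 (0.073), 0 of either fell, and 0 genes of the NRF2 target, glutathione metabolism, selenoprotein and reactive oxygen lists rose, as 0 selenoprotein genes fell. With the replicate block 0 member probe sets and 0 member genes fell, since gpx4a lost its call (adjusted p = 0.0675, limma), and 1 NRF2 regulator rose; the other 5 member calls held. The labels do not say whether arrays with the same number were paired, and not every array correlated best with its own number. For txnb the adjusted p was 0.00707 with the block and 0.0286 without it (limma). Among probe sets at or above the median mean 0 selenoprotein genes rose, since selenon lies below it. The same filter left out abcc4 and ncf1, so that NRF2 targets and reactive oxygen sources that rose each went from 3 to 2.

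Changes near 0 turned sign when an array was left out, and none of these was called: gclc ranged from -0.024 to 0.18, glrx5 from -0.088 to 0.038, gsto2 from -0.038 to 0.039, gstt1b from -0.11 to 0.049, msrb1b from -0.11 to 0.11, the dimmer probe set of nfe2l2a from -0.041 to 0.029, nqo1 from -0.33 to 0.029, prdx2 from -0.038 to 0.094, txndc15 from -0.059 to 0.00054 and txnipb from -0.11 to 0.047, as did the GAPDH difference (-0.078 to 0.028). Sign also turned for msrb1b with array weights (-0.0091) and further quantile normalization (-0.0064), and with that normalization also for the dimmer probe set of nfe2l2a (0.016) and txnipb (0.0099). No called member change turned sign in the alternatives it was fitted in, which were 17 for each but nfe2l3, left out by the filter at the median mean. Low signal limits the reading of gpx8, txnipb, gstcd, gsto1, txnl4b, nfe2l3 and the second probe set of nfe2l2a. The same holds for the dimmest probe sets of msrb1a, prdx1 and txndc5.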
